A study of Mus musculus with 30 samples.

Results

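Collagens are the most abundant structural proteins outside cells, and each molecule is a triple helix of 3 chains encoded by Col genes. Fibrillar collagens (types I, III and V among them) form the banded fibrils of connective tissue and are made mostly by fibroblasts, pericytes and related cells. Type IV collagen forms the sheet-like network of basement membranes under epithelia and around vessels. Other collagens sit on fibrils, link them to cells or form finer networks. In the pancreas fibrillar collagen is known to accumulate in fibrosis and around tumours, and in the kidney a special type IV network lines the filtration barrier of the glomerulus.

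All genes of mouse named Col, a number, a and a number were followed: 43 of 19468 genes in the kidney table and the same 43 of 19685 genes in the pancreas table. Of them 11 encode fibrillar chains, 6 (Col4a1 to Col4a6) basement membrane chains and 26 other chains. The data are poly(A) RNA-seq libraries of kidney and pancreas from C57BL/6 mice, 5 replicates in each of 6 groups. All mice were given doxycycline at 0.2 mg/ml in their drinking water over 7 days. In the kidney the groups are i4F p53 KO, i4F Ink4a/Arf KO and i4F (labelled i4F_WT). In the pancreas they are p53 KO, i4F Ink4a/Arf KO and i4F. The i4F cassette lets doxycycline switch on 4 factors that reprogram cells to pluripotency, Sox2, Klf4, Myc and Oct4 (encoded by Pou5f1), and all groups had the drug. The pancreas label p53 KO does not name i4F, yet Pou5f1 measured 24.6 to 98.2 FPKM in its 5 libraries, against 0 to 1.14 FPKM in i4F pancreas. Ages, the construction of the alleles and any pooling are not given in the sources used here. FPKM are fragments scaled to transcript length and library size, a level per length, so levels of different genes can be set side by side within a library.

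The deleted gene was looked at first. Kidney Trp53 measured 4.90 to 10.1 FPKM in i4F p53 KO, against 14.8 to 20.3 FPKM in i4F, without overlap (log2 fold change -1.14, limma adjusted p = 0.00547). Pancreas Trp53 measured 6.65 to 24.8 FPKM in the libraries labelled p53 KO, against 1.64 to 6.99 FPKM in i4F. Relative to the median gene it was 4.17 to 6.66 in those libraries, against 3.55 to 6.97 in i4F, a log2 fold change of 0.17 that did not pass (limma adjusted p = 0.326), and these libraries are called by their label throughout. Transcripts of acinar cells, the enzyme-making cells of the pancreas, took 1.08% to 48.9% of all FPKM in the libraries labelled p53 KO, against 62.0% to 73.7% in i4F Ink4a/Arf KO mice and 61.5% to 73.3% in i4F. As deposited the median gene there was 1.58 higher on the log2 scale than in i4F. Each comparison is given as deposited and also relative to the median gene, after each library was divided by its median ratio to the other libraries of its tissue. The 5 libraries labelled p53 KO held 10507 to 13194 genes at 1 FPKM or more, against 6867 to 7892 in i4F Ink4a/Arf KO mice and 6596 to 9852 in i4F. By Xist and Ddx3y all p53 KO mice were male, while i4F replicates 4 and 5 in kidney, i4F replicates 3, 4 and 5 in pancreas and Ink4a/Arf KO replicate 1 in both tissues were female.

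The start regions are shown because the results turn on their genes: Col1a2 and Col3a1 as fibrillar collagens, and Col4a1 and Col4a2 as a neighbouring pair. They run from 250 bases before to 50 bases after the gene start in RefSeq on GRCm38.p6, and 35 of the 43 genes had such an entry, Col1a1 and Col4a3 not among them. Capitals mark CCAAT and TATAAA on either strand (ATTGG and TTTATA on the other).
Col1a2, chr6:4505368-4505667, plus strand: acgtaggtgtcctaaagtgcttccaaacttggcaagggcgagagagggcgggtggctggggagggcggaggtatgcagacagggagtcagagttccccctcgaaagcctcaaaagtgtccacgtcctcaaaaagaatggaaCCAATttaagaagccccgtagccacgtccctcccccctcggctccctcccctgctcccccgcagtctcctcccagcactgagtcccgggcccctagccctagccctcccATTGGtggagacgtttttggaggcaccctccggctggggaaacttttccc
Col3a1, chr1:45311288-45311587, plus strand: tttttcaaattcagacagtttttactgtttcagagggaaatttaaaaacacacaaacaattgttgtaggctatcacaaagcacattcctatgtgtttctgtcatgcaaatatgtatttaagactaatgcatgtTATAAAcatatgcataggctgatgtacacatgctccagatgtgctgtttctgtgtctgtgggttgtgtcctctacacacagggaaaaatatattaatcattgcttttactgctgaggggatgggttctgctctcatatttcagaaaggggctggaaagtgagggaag
Col4a1, chr8:11312777-11313076, minus strand: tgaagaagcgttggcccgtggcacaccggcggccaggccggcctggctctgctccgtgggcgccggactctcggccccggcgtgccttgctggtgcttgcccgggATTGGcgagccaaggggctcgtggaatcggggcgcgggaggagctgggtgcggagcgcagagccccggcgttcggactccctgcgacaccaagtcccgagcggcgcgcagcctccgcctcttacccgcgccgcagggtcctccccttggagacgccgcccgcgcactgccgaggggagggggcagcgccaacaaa
Col4a2, chr8:11312555-11312854, plus strand: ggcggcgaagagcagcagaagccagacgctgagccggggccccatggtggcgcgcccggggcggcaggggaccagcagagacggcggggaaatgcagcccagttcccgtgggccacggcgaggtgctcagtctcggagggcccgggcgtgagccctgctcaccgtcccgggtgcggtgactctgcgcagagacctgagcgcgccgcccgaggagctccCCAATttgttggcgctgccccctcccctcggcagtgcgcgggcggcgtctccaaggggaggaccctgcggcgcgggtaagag
The Col1a2 window held CCAAT at 2 places and no TATAAA, the Col3a1 window TATAAA at 1 place and no CCAAT, and the Col4a1 and Col4a2 windows 1 CCAAT each. CCAAT was in 34.2% of the 38 collagen windows and in 37.4% of all 32851 windows of this length, and TATAAA in 13.2% and 13.6%. GGGCGG, the GC box, was in 60.5% of collagen windows and in 35.7% of all windows, counted on both strands. These are matches of letters only. In the annotation (GENCODE M21, GRCm38) Col4a1 and Col4a2 start 21 bases apart on opposite strands of chromosome 8, Col4a3 and Col4a4 start 72 bases apart on chromosome 1, and Col4a5 and Col4a6 start 1309 bases apart on the X chromosome. Col3a1 and Col5a2 are neighbours on chromosome 1 with 24615 bases between them.

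In the pancreas the libraries labelled p53 KO held far more collagen RNA, above all of fibrillar collagens. The 43 genes summed to 565, 1697, 3399, 4479 and 8081 FPKM over the 5 libraries from lowest to highest, against 45.7 to 93.0 FPKM in i4F Ink4a/Arf KO mice and 46.1 to 171 FPKM in i4F. That is 0.0664% to 1.54% of all FPKM in the libraries labelled p53 KO, against 0.00618% to 0.0119% in i4F Ink4a/Arf KO mice and 0.00627% to 0.0231% in i4F. Relative to the median gene the sum was 433 to 2168 (median 864) in the libraries labelled p53 KO, against 71.3 to 146 (median 111) in i4F Ink4a/Arf KO mice and 99.6 to 170 (median 112) in i4F. The libraries labelled p53 KO overlapped neither of the other groups on either scale. In whole tissue, more cells of a type and more RNA per cell cannot be told apart.

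**Figure D1:**
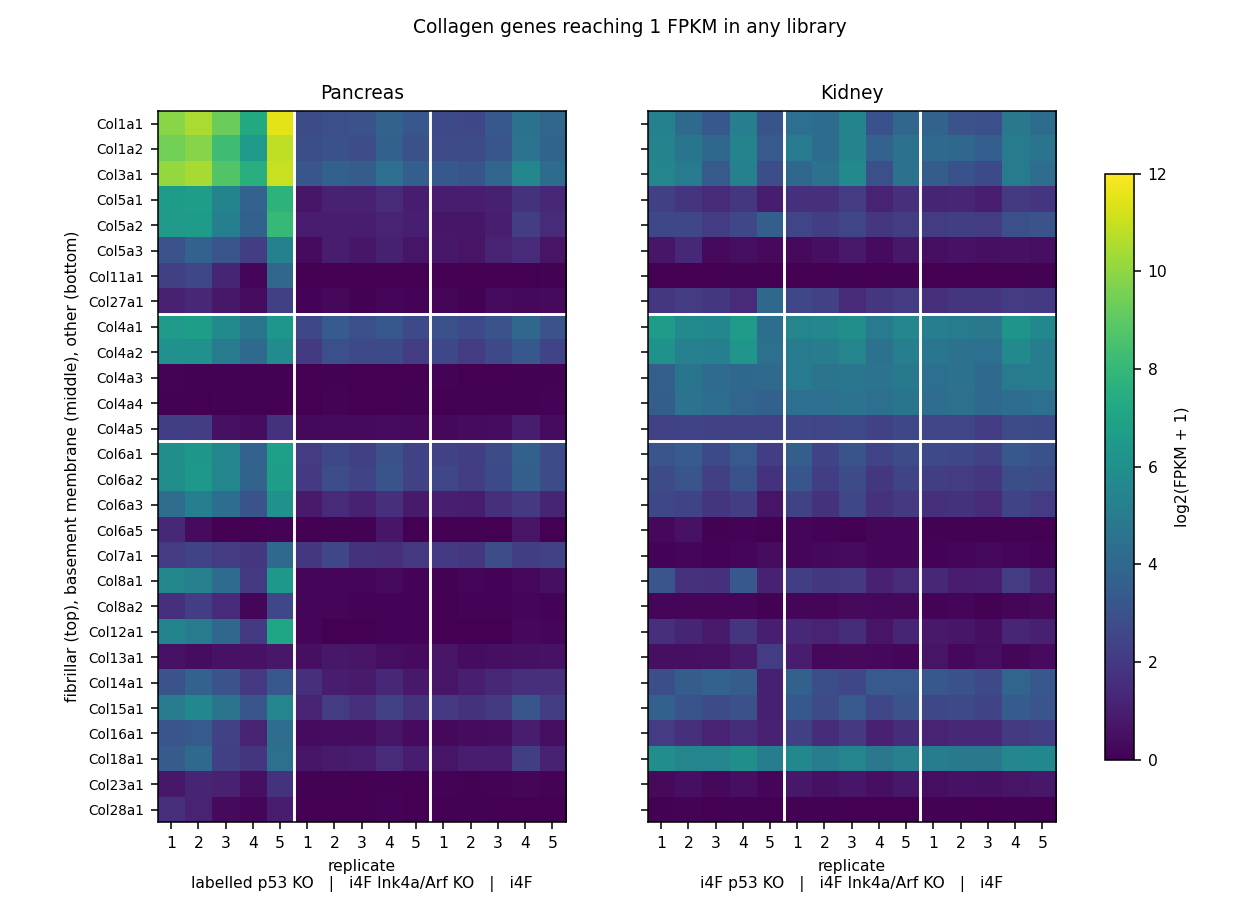
Level of each collagen gene that reached 1 FPKM in any library, as log2(FPKM + 1) in color, by library (columns, replicates 1 to 5 of each group) and class (rows). In pancreas the libraries labelled p53 KO stand out in the fibrillar rows, with replicate 5 brightest and replicate 4 dimmest, while kidney groups look alike.

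Col1a1 and Col1a2 encode the chains of type I collagen, the main fibril collagen, and Col3a1 that of type III, which is found with it in pliable tissue. Col1a1 (chromosome 11, 94936224 to 94953042) measured 943, 1417, 610, 156 and 2935 FPKM in the libraries labelled p53 KO, against 5.40, 4.92, 8.91, 22.0 and 14.5 FPKM in i4F. Even the lowest of the p53 KO values lay above the highest i4F value. Its log2 fold change was 6.28 as deposited (SE 0.57, limma adjusted p = 1.24e-07) and 4.31 relative to the median gene (SE 0.40, limma adjusted p = 6.41e-07). Col1a2 (chromosome 6, 4504814 to 4541544) measured 697, 910, 308, 88.5 and 1839 FPKM in the libraries labelled p53 KO, against 5.80, 5.73, 8.35, 22.7 and 13.8 FPKM in i4F, and the scaled change was 3.57 (SE 0.39, limma adjusted p = 2.97e-06). Col3a1 (chromosome 1, 45311538 to 45349706) measured 1112, 1396, 425, 192 and 2030 FPKM in the libraries labelled p53 KO, against 8.85, 7.68, 14.1, 46.3 and 18.2 FPKM in i4F, and its scaled change was 3.55 (SE 0.35, limma adjusted p = 1.13e-06). Replicate 4 was lowest and replicate 5 highest for all 3 genes.

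Type V chains are built into type I fibrils in small amounts and are known to set their width. Col5a1 measured 93.0, 104, 41.8, 12.6 and 217 FPKM in the libraries labelled p53 KO, against 0.887 to 2.42 FPKM in i4F. Col5a2 measured 90.2, 96.4, 35.8, 12.1 and 259 FPKM there, against 0.646 to 3.50 FPKM in i4F. Both rose by 3.09 relative to the median gene (limma adjusted p = 1.76e-06 and 5.71e-06). Col5a3 measured 3.53 to 37.5 FPKM in the libraries labelled p53 KO, against 0.558 to 1.70 FPKM in i4F, and rose by 1.05 (SE 0.29, limma adjusted p = 0.00477). Col11a1, a chain of cartilage fibrils, measured 0.137 to 14.5 FPKM in the libraries labelled p53 KO, against 0 to 0.0631 FPKM in i4F, and was below the filter for testing. Of the 11 fibrillar genes 6 were tested and 6 rose in both fits, where 91.2% of all genes rose as deposited and 33.5% relative to the median gene. As deposited Col5a2 and Col5a3 passed the filter only through the p53 KO libraries, which fixed their direction.

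The type IV chains of ordinary basement membranes stood higher too, by less. Col4a1 (chromosome 8, 11198423 to 11312826) measured 89.7, 101, 50.02, 24.7 and 77.2 FPKM in the libraries labelled p53 KO, against 6.81, 5.24, 7.49, 14.4 and 7.50 FPKM in i4F. It rose by 2.82 as deposited and by 0.88 relative to the median gene (SE 0.17, limma adjusted p = 4.48e-04). Col4a2, its partner chain, measured 65.8, 66.7, 31.3, 15.9 and 54.6 FPKM in the libraries labelled p53 KO, against 4.99, 3.32, 5.32, 9.04 and 4.26 FPKM in i4F, and its scaled change was 0.90 (SE 0.19, limma adjusted p = 7.63e-04). In neither gene did the groups overlap, on either scale. Col4a5 measured 0.298 to 3.68 FPKM in the libraries labelled p53 KO, against 0.198 to 0.889 FPKM in i4F, with overlap. Col4a3 stayed at or below 0.0779 FPKM in all 15 pancreas libraries.

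Among the other collagens, Col12a1 (chromosome 9), which sits on type I fibrils, measured 42.3, 29.0, 14.6, 3.15 and 135 FPKM in the libraries labelled p53 KO, against 0.0313 to 0.176 FPKM in i4F. Col8a1 (chromosome 16), a short-chain collagen of vessel walls and the eye, measured 44.5, 36.4, 17.2, 3.08 and 83.0 FPKM there, against 0.0608 to 0.391 FPKM in i4F. Relative to the median gene Col12a1 rose by 3.23 (SE 0.41, limma adjusted p = 1.06e-05) and Col8a1 by 3.03 (SE 0.34, limma adjusted p = 3.75e-06). Both passed the filter only through the p53 KO libraries, so their calls could go in 1 direction only.

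Type VI collagen forms beaded filaments between cells and fibrils, from chains of Col6a1, Col6a2 and Col6a3. Col6a1 (chromosome 10, 76708792 to 76726168) measured 59.1, 81.3, 43.9, 12.5 and 107 FPKM in the libraries labelled p53 KO, against 4.16, 3.65, 5.91, 12.2 and 5.62 FPKM in i4F. The lowest p53 KO value lay just above the highest i4F value, and after scaling the groups overlapped. The scaled change was 0.99 for Col6a1 (SE 0.25, limma adjusted p = 0.00289), 1.00 for Col6a2 (SE 0.26, limma adjusted p = 0.00327) and 1.55 for Col6a3 (SE 0.27, limma adjusted p = 1.56e-04). Col15a1 and Col18a1 encode collagens of basement membrane zones. Col15a1 (chromosome 4) measured 8.40 to 47.1 FPKM in the libraries labelled p53 KO, against 2.42 to 8.11 FPKM in i4F, with a scaled change of 0.71 (limma adjusted p = 0.0172), and this call was lost without p53 KO replicate 2 (0.58, limma adjusted p = 0.051) and with Xist level, which marks female mice, as a covariate (0.55, limma adjusted p = 0.088). Col18a1 (chromosome 10), whose end fragment is endostatin, measured 2.48 to 20.3 FPKM there, against 0.598 to 3.61 FPKM in i4F. As deposited it was 2.04 higher (limma adjusted p = 2.16e-04), but it passed that filter only through the p53 KO libraries, which fixed the direction. Relative to the median gene it missed the threshold (0.52, limma adjusted p = 0.09), and it crossed it without p53 KO replicate 3 (0.64, limma adjusted p = 0.0459), p53 KO replicate 4 (0.64, limma adjusted p = 0.0473) or i4F replicate 4 (0.70, limma adjusted p = 0.0228).

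Col7a1, the anchoring fibril that ties skin epithelium to the tissue below, went the other way once libraries were scaled. As deposited it measured 3.45, 4.37, 3.44, 2.74 and 16.4 FPKM in the libraries labelled p53 KO, against 3.07, 2.78, 6.25, 3.66 and 3.93 FPKM in i4F, a difference of 0.29 that missed the threshold (limma adjusted p = 0.435). Relative to the median gene it fell by 1.26 (SE 0.28, limma adjusted p = 0.00104). The groups overlapped on both scales, and replicate 5 was the high value. Col14a1, another collagen of the fibril surface, measured 2.93 to 12.7 FPKM in the libraries labelled p53 KO, against 0.595 to 2.07 FPKM in i4F, and its scaled change of 0.25 did not pass (limma adjusted p = 0.251).

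**Figure D2:**
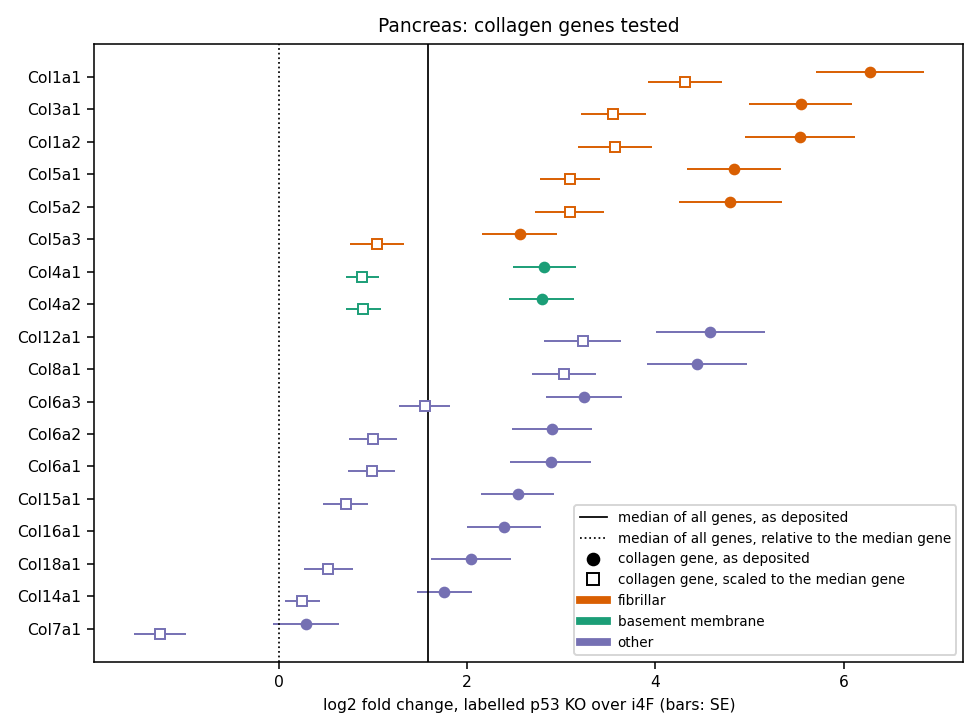
Log2 fold change of the collagen genes tested in pancreas, libraries labelled p53 KO over i4F, as deposited (filled circles) and relative to the median gene (open squares), with SE; vertical lines mark the median of all genes tested in each fit. Col1a1, Col1a2, Col3a1, Col5a1, Col5a2, Col8a1 and Col12a1 lie farthest right, Col4a1 and Col4a2 at 0.88 and 0.90 after scaling, and Col7a1 lies left of 0 after scaling; Col16a1 was tested only as deposited.

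Counted over the family, 17 of 18 tested genes rose as deposited and none fell, where 91.2% of all 10781 genes tested rose and 2.25% fell, so the collagen share is close to that of all genes. Of those 18 genes 6 passed the filter only through the p53 KO libraries, as did 2 of the 17 tested after scaling. Relative to the median gene 14 of 17 rose and 1 fell, where 33.5% of 10347 genes rose and 33.2% fell. The median change was 1.05 over the 17 collagens and -0.00058 over all genes. By class the scaled median was 3.32 for fibrillar genes, 0.89 for the 2 type IV genes and 0.99 for 9 others (6 rose, 1 fell). With the filter taken only from i4F and i4F Ink4a/Arf KO libraries, 12 of 15 rose and 1 fell, where 27.9% of genes rose and 37.1% fell. Among all 43 genes, tested or not, 13 had every scaled p53 KO value above every i4F value, 7 of them among the 11 fibrillar genes. Another 4 had every value below. Over all 19679 genes 17.7% lay above and 14.3% below in this way. The 4 collagens that lay below were under 1 FPKM in every pancreas library as deposited and were not tested. As deposited 0 of the 43 lay below. Of the 43 genes, 18 stayed below 1 FPKM in every pancreas library.

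Against i4F Ink4a/Arf KO pancreas, which shares the p53 KO libraries with the comparison above, 17 of 18 collagens rose as deposited (91.7% of all genes rose and 1.97% fell) and 15 of 17 rose and 1 fell relative to the median gene (33.1% of all genes rose and 35.1% fell). The scaled changes were 4.44 for Col1a1, 3.79 for Col1a2, 3.78 for Col3a1, 0.95 for Col4a1, 0.91 for Col4a2, 1.19 for Col6a1 and 1.08 for Col15a1. As above, 6 of the 18 genes and 2 of the 17 passed the filter only through the p53 KO libraries, which fixed their direction. Col7a1 fell by 1.02 (limma adjusted p = 0.00436). Col18a1 passed here with 0.64 (limma adjusted p = 0.0408), a call lost on leaving out any of 7 single libraries.

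Between i4F Ink4a/Arf KO and i4F pancreas no collagen passed the test, of 18 tested as deposited and of 17 scaled, and none had an unadjusted p under 0.05 by limma. No gene of the whole table passed either (0% of 10781). Col1a1 measured 5.62, 6.54, 7.29, 13.2 and 8.45 FPKM in i4F Ink4a/Arf KO, within the 4.92 to 22.0 FPKM of i4F. Col3a1 measured 8.34 to 19.8 FPKM in i4F Ink4a/Arf KO, against 7.68 to 46.3 FPKM in i4F, and Col4a1 4.91 to 9.95 FPKM, against 5.24 to 14.4 FPKM. Fold changes of the 18 genes ran from -0.44 for Col15a1 to -0.02, all below 0, where 3109 of all 10781 genes tested lay above 0. Their median was -0.19, beside -0.07 over all genes tested. Relative to the median gene 1 of 17 collagens lay above 0, as did 5793 of 10347 genes, with medians of -0.12 and 0.02. Within i4F, replicate 4 held the highest collagen sum, 171 FPKM, and the highest Col1a1, Col1a2, Col3a1 and Col4a1.

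The mix of collagens differed in the same libraries. Fibrillar genes made up 86.7%, 88.0%, 84.3%, 82.3% and 90.8% of collagen FPKM in the libraries labelled p53 KO, against 41.2% to 53.3% in i4F Ink4a/Arf KO mice and 42.2% to 58.0% in i4F. Type IV genes made up 1.67% to 7.27% in the libraries labelled p53 KO, against 15.5% to 23.9% in i4F Ink4a/Arf KO mice and 13.8% to 22.8% in i4F. All other collagens made up 7.55% to 10.9% in the libraries labelled p53 KO, against 30.5% to 34.9% in i4F Ink4a/Arf KO mice and 27.6% to 35.9% in i4F. On each of these shares the libraries labelled p53 KO lay wholly apart from both other groups.

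**Figure D3:**
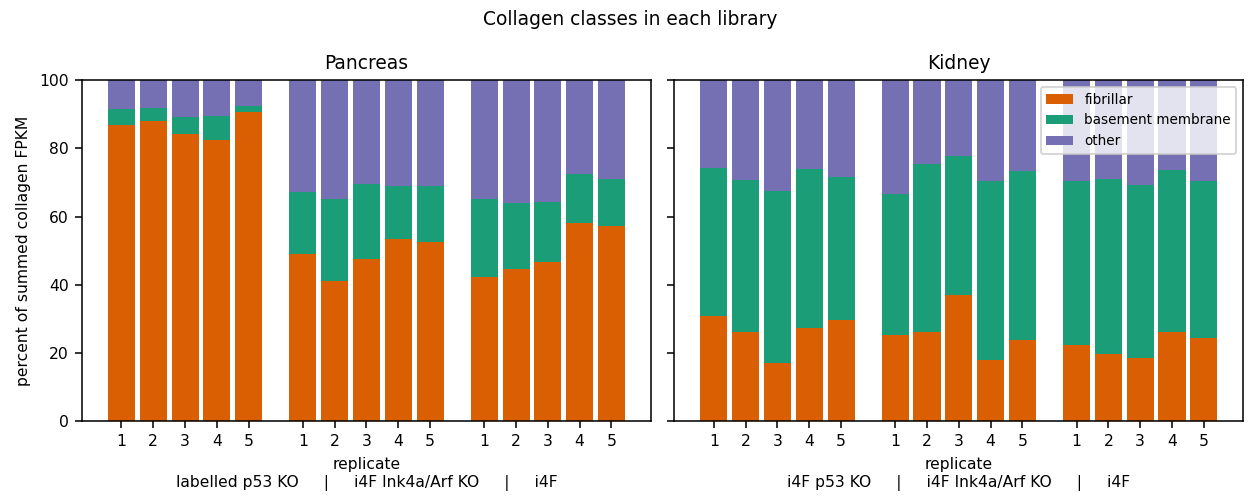
Percent of the summed collagen FPKM held by fibrillar, basement membrane and other collagens in each library, pancreas left and kidney right. In pancreas the fibrillar share is 82.3% to 90.8% in the libraries labelled p53 KO and at most 58.0% elsewhere; in kidney it is 17.0% to 37.0%.

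Ratios of 2 genes within a library do not depend on how the library was scaled, apart from a pseudocount of 0.01 FPKM. The log2 ratio of Col3a1 to Col4a1 was 2.96 to 4.72 in the libraries labelled p53 KO, against 0.38 to 1.68 in i4F, a difference of 2.67 (exact permutation test, two-sided, p = 0.00794, the smallest that 5 against 5 libraries can give; 0.0397 adjusted over 30 ratio comparisons). The log2 ratio of Col1a2 to Col1a1 was -0.99 to -0.44 in the libraries labelled p53 KO, against -0.09 to 0.22 in i4F, a difference of -0.75 (exact p = 0.00794, adjusted 0.0397). In both ratios the groups did not overlap, and Col1a1 rose by more than Col1a2. Against i4F Ink4a/Arf KO the 2 differences were 2.84 and -0.65, with the same exact p of 0.00794 and adjusted p of 0.0397. The ratio within the head-to-head type IV pair, Col4a2 to Col4a1, was -0.68 to -0.45 in the libraries labelled p53 KO, against -0.82 to -0.45 in i4F, a difference of 0.04 that did not pass (exact p = 0.579). Col6a1 to Col4a1 was -0.98 to 0.47, against -0.71 to -0.24 in i4F, a difference of 0.12 that did not pass (exact p = 0.683). Col4a3 to Col4a1 differed by -2.70 (exact p = 0.00794, adjusted 0.0397), with Col4a3 itself near 0.

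**Figure D4:**
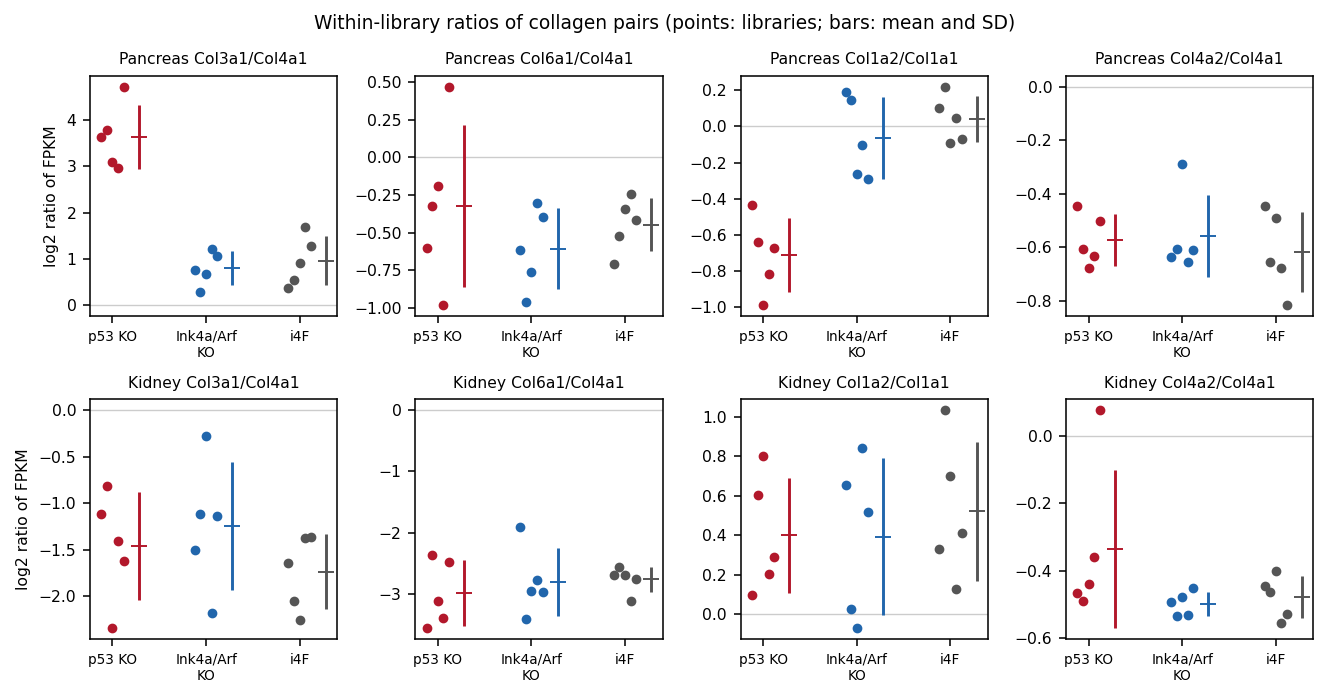
Log2 ratio of 2 collagen genes within each library (points), with the mean and SD of each group, pancreas above and kidney below; the leftmost group is labelled p53 KO in pancreas and i4F p53 KO in kidney. In pancreas Col3a1/Col4a1 and Col1a2/Col1a1 separate the libraries labelled p53 KO from both other groups, Col4a2/Col4a1 does not, and in kidney all groups overlap.

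The 5 libraries labelled p53 KO differed among themselves. Of 25 collagens that reached 1 FPKM in any pancreas library, replicate 4 was the lowest of the 5 in 25 as deposited and in 16 after scaling, and replicate 5 the highest in 18 on both scales. Replicate 2 was highest in Col4a1, Col4a2, Col14a1 and Col15a1, with Col4a1 at 101 FPKM there and 77.2 FPKM in replicate 5. The acinar share of FPKM in replicates 1 to 5 was 8.58%, 18.2%, 33.1%, 48.9% and 1.08%, so that the library with most acinar RNA had the least collagen and the one with least acinar RNA the most. Its part in the result was not tested.

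Markers of other cell types were read in the same fit, where 33.5% of all genes rose and 33.2% fell. Of 10 fibroblast markers tested 5 rose and 3 fell relative to the median gene, led by Mfap5 (2.46), Mfap4 (2.49) and Fbln2 (1.89), microfibril and matrix proteins. Those that fell were Clec3b (-2.14), Dpt (-1.19) and Dpep1 (-0.79), named after their values were seen. Their 12-gene sum, scaled, was 93.1 to 201 in the libraries labelled p53 KO, against 69.8 to 108 in i4F Ink4a/Arf KO mice and 89.4 to 103 in i4F, and none of the 12 was at 0 throughout. Of 9 markers of pericytes, smooth muscle and myofibroblasts 6 rose, led by Postn (3.51), Actg2 (2.36) and Tagln (2.30), and 2 fell. The 13-gene sum was 74.1 to 240, against 17.6 to 44.6 in i4F Ink4a/Arf KO mice and 21.4 to 45.3 in i4F. As deposited 4 of the 13 genes stayed below 1 FPKM in every i4F library, and 5 in every i4F Ink4a/Arf KO library. For any of these that were tested the direction was largely fixed. Pdgfra, a receptor of fibroblasts, rose by 0.86 and Pdgfrb, a receptor of pericytes, by 0.80 (limma adjusted p = 9.23e-04 and 0.002). Both were named in part after their values were seen, while 3 genes of the fibroblast list and 2 of the pericyte list fell. Of 12 endothelial markers 0 rose and 4 fell, a share of falls near that of all genes, Flt1 (-0.78), Kdr (-0.72) and Plvap (-0.68) first. The 12-gene sum was 61.1 to 73.8, against 74.4 to 120 in i4F. It overlapped the 68.3 to 105 of i4F Ink4a/Arf KO mice. Of 8 leukocyte markers 5 rose and 1 fell (sum 269 to 1541, against 67.1 to 631 in i4F). Duct markers rose in 6 of 8 and fell in 1 (395 to 748, against 94.9 to 157). All 4 keratinocyte markers tested rose (161 to 347, against 3.44 to 10.6). As deposited 8 of the 9 keratinocyte markers listed stayed below 1 FPKM in every i4F library, and 8 in every i4F Ink4a/Arf KO library. The direction of those tested was therefore largely fixed by the filter. The acinar genes Ctrb1, Cela2a, Amy2b and Pnlip are listed at 0 in all 5 i4F libraries, so no change is read from them and they add nothing to the i4F acinar shares above. Of the 19 other acinar markers tested 15 fell and 0 rose. Of 11 islet markers 6 fell, of 6 podocyte markers 3 rose and 1 fell, and of 2 kidney tubule markers 1 fell. As deposited 5 of the 12 podocyte markers listed stayed below 1 FPKM in every i4F library, and 8 in every i4F Ink4a/Arf KO library. For the 9 duct markers listed these counts were 2 and 1, and for the 12 fibroblast markers 2 and 2. Any of these that were tested could largely go in 1 direction only. The part of these cells in the collagen levels was not tested.

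Collagen chains need a set of enzymes and partners, which were read from 5 lists. In the list of chain modification and folding 12 of 19 tested genes rose and 6 fell relative to the median gene, with a median of 0.91. Fkbp10, a folding helper of the endoplasmic reticulum, rose by 2.41 (limma adjusted p = 3.06e-06), while Mia3 and Ctage5, which load procollagen into transport vesicles, fell by 1.04 and 1.34 (limma adjusted p = 8.09e-06 and 3.88e-06). Serpinh1, the collagen chaperone, measured 136, 232, 192, 83.5 and 584 FPKM in the libraries labelled p53 KO, against 7.36 to 23.9 FPKM in i4F, and rose by 1.99 (limma adjusted p = 5.71e-05). In the list of procollagen processing and fibril assembly 15 of 20 rose and 3 fell, with a median of 1.74. Lox, the enzyme that starts crosslinks between fibril molecules, measured 105, 89.2, 46.7, 14.5 and 205 FPKM in the libraries labelled p53 KO, against 0.203 to 1.76 FPKM in i4F, and rose by 3.84 (SE 0.30, limma adjusted p = 1.34e-07). Its relatives Loxl4 and Loxl1 rose by 2.37 and 1.92. Over all genes tested in this fit the median was -0.00058, with 33.5% higher and 33.2% lower. Members of any of the 5 lists that passed the filter only through the p53 KO libraries could largely only rise. Their number is not given here.

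Of 7 tested collagen receptors 5 rose and 1 fell, among them Cd44 (3.12), the integrin chain Itga2 (1.92) and Mrc2 (1.64), which takes up collagen fragments. Of 15 basement membrane partners 11 rose and 0 fell, among them the laminin chains Lama3 (1.46) and Lamc1 (1.42), with a list median of 0.90. Of 7 collagen-cleaving enzymes 6 rose and 1 fell, with Mmp14 (2.58), Mmp2 (2.12) and Ctsb (1.27) first. Beside these counts, 33.5% of all genes tested in this fit rose and 33.2% fell. The same limit of the filter holds for these lists. The lists were drawn up with earlier results of these data known.

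Type IV collagen held the highest share of kidney collagen RNA, and no member passed a test there. Their sum was 173 to 443 FPKM in i4F p53 KO, against 187 to 386 FPKM in i4F Ink4a/Arf KO mice and 164 to 375 FPKM in i4F. Type IV genes made up 41.9% to 50.5% of it in i4F p53 KO, against 40.8% to 52.6% in i4F Ink4a/Arf KO mice and 46.1% to 51.2% in i4F, and fibrillar genes 17.0% to 30.8%, against 18.0% to 37.0% and 18.5% to 26.2%. By median level in i4F the highest genes were Col4a1 (33.8 FPKM), Col18a1 (32.4), Col4a2 (24.9), Col4a3 (21.8), Col4a4 (18.9) and Col1a2 (16.3). Neighbours in that order overlapped in their range. Of 43 genes 20 passed the filter and 21 stayed below 1 FPKM in every library.

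No kidney collagen passed in any of the 3 comparisons, on either scale, by limma. For i4F p53 KO against i4F 0 of 20 passed where 0.257% of all 12431 genes did (0.5% relative to the median gene), and 1 collagen had an unadjusted p under 0.05 as deposited and 5 relative to the median gene, where 13.2% and 14.4% of all genes did. For i4F p53 KO against i4F Ink4a/Arf KO 0 of 20 passed where 0.265% did (0.54% relative to the median gene), with 2 and 4 at an unadjusted p under 0.05, where 18% and 19.8% of all genes were. For i4F Ink4a/Arf KO against i4F 0 of 20 passed where 0% did, with 0 on both scales at an unadjusted p under 0.05, where 3.2% and 3.17% of all genes were. No collagen had all values of i4F p53 KO above or below those of i4F (0.74% and 1.28% of all genes did).

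In the kidney, Col4a1 measured 93.9, 51.9, 47.9, 97.1 and 19.5 FPKM in i4F p53 KO, against 33.8, 30.3, 26.3, 73.6 and 48.1 FPKM in i4F, 0.44 apart on the log2 scale (SE 0.38, limma adjusted p = 0.66; 0.23 to 0.79 with 1 library left out). Col4a3 (chromosome 1, 82586921 to 82722059) makes with Col4a4 and Col4a5 the network of the mature glomerular filter, and its loss is known in Alport syndrome of people. It measured 11.4, 24.6, 17.3, 15.6 and 16.2 FPKM in i4F p53 KO, against 22.8 to 30.8 FPKM in i4F Ink4a/Arf KO mice and 19.5, 21.8, 17.0, 29.2 and 31.5 FPKM in i4F. Of the 5 p53 KO values 4 lay below every Ink4a/Arf KO value. Against i4F Ink4a/Arf KO the difference was -0.62 (SE 0.19, limma adjusted p = 0.144), and against i4F -0.46 (SE 0.19, limma adjusted p = 0.301). Col4a4 measured 10.7, 22.8, 19.4, 14.3 and 12.1 FPKM in i4F p53 KO, against 19.8 to 24.2 FPKM in i4F Ink4a/Arf KO, a difference of -0.45 (limma adjusted p = 0.182).

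Both missed the threshold with all libraries and crossed it without i4F p53 KO replicate 2, at -0.75 for Col4a3 and -0.59 for Col4a4 against i4F Ink4a/Arf KO (limma adjusted p = 0.043 for both). They also crossed it once 4 kidney libraries with over 100 FPKM of Clps, an acinar gene of the pancreas, were left out (i4F p53 KO replicates 2, 3 and 4 and i4F replicate 5), at -0.88 and -0.84 (limma adjusted p = 0.0341 and 0.00837), with 2 libraries left in i4F p53 KO. Markers of podocytes, the glomerular cells that make these chains, summed to 121 to 148 FPKM in i4F p53 KO, against 85.9 to 163 FPKM in i4F Ink4a/Arf KO mice and 99.5 to 180 FPKM in i4F, and none was at 0. Tubule markers summed to 7292 to 38096 FPKM in i4F p53 KO, against 24488 to 63192 FPKM in i4F Ink4a/Arf KO mice and 21049 to 81005 FPKM in i4F. Their part in these differences was not tested.

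**Figure D5:**
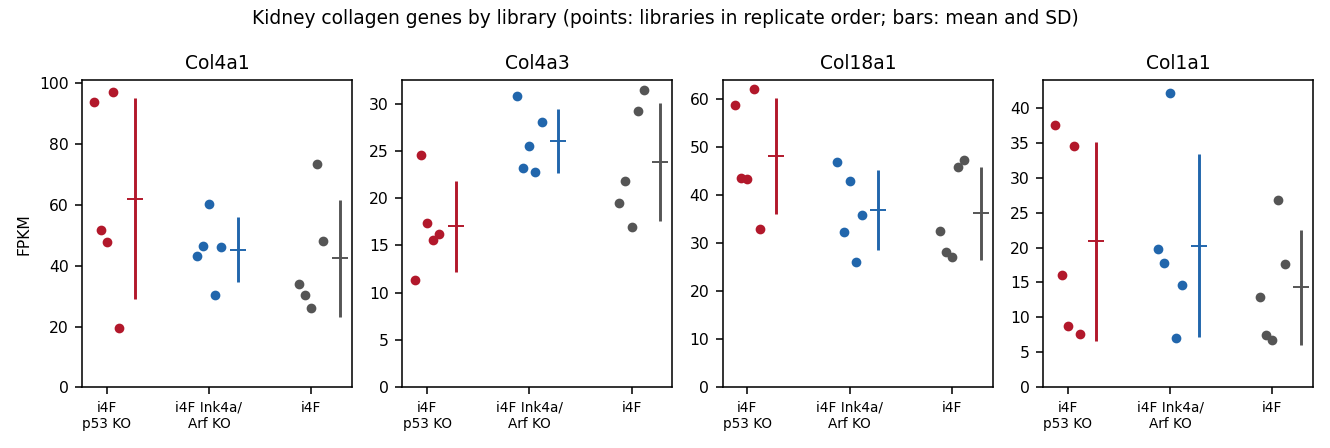
FPKM of Col4a1, Col4a3, Col18a1 and Col1a1 in each kidney library (points, replicates 1 to 5 from left to right), with mean and SD of each group. Col4a3 lies at 11.4 to 24.6 FPKM in i4F p53 KO, 22.8 to 30.8 in i4F Ink4a/Arf KO mice and 17.0 to 31.5 in i4F, and the groups overlap in all 4 genes.

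Col18a1 measured 58.7, 43.6, 43.3, 62.1 and 32.9 FPKM in i4F p53 KO kidney, against 32.4, 28.2, 27.2, 45.8 and 47.4 FPKM in i4F, a difference of 0.40 (SE 0.21, limma adjusted p = 0.43). Col1a1 measured 37.5, 16.1, 8.80, 34.5 and 7.59 FPKM in i4F p53 KO, against 13.0, 7.49, 6.71, 26.8 and 17.6 FPKM in i4F, a difference of 0.41 (SE 0.51, limma adjusted p = 0.771; 0.14 to 0.68 with 1 library left out). The highest difference among kidney collagens was that of Col8a1, at 1.17 to 8.47 FPKM in i4F p53 KO, against 0.976 to 3.29 FPKM in i4F (0.82, SE 0.39, limma adjusted p = 0.381). Replicates 1 and 4 of i4F p53 KO held the high values of Col4a1, Col18a1, Col1a1 and Col8a1 in that group.

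A single i4F p53 KO kidney library, replicate 5, stood apart. It held the highest value of all 15 kidney libraries for Col27a1 (15.03 FPKM, against 1.77 to 4.92 in the other 14), Col5a2 (11.5 FPKM) and Col13a1 (3.39 FPKM), and the lowest for 8 of 22 collagens that reached 1 FPKM. Among those 8 were Col15a1 (1.09 FPKM, against 4.28 to 12.4 in the other 14) and Col14a1 (1.05 FPKM). It was also the only library in which Col4a2 stood above Col4a1 (20.5 and 19.5 FPKM). Pdgfra measured 1.57 FPKM and Pdgfrb 3.80 FPKM there, below the other 4 i4F p53 KO libraries at 6.30 to 8.44 and 11.9 to 18.9 FPKM. Without this replicate 0 collagens passed against i4F and 0 against i4F Ink4a/Arf KO.

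None of the 5 ratios passed in the kidney. Col3a1 to Col4a1 was -2.35 to -0.82 in i4F p53 KO, against -2.26 to -1.36 in i4F (exact permutation p = 0.444), and Col4a2 to Col4a1 -0.49 to 0.07, against -0.55 to -0.40 (exact permutation p = 0.175). Col4a3 to Col4a1 was -3.04 to -0.26 in i4F p53 KO, against -1.33 to -0.47 in i4F, a difference of -0.93 (exact permutation p = 0.135).

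An interaction term in a fit of all 30 libraries asked whether the change that went with the p53 KO label differed between tissues, relative to the median gene of each tissue. Of 15 collagens tested in both tissues 8 differed, all with the higher change in pancreas, where 23.8% of 9823 genes differed in that direction and 24.1% in the other. They were all 5 fibrillar genes tested, Col1a1 (3.93, SE 0.62, limma adjusted p = 2.01e-05), Col1a2 (3.30), Col3a1 (2.91), Col5a1 (2.90) and Col5a2 (2.89), and among others Col12a1 (2.79), Col8a1 (2.23) and Col6a3 (1.51). Col12a1 and Col8a1 passed the pancreas filter only through the p53 KO libraries, which largely fixed their direction. Col4a1 (0.48, limma adjusted p = 0.309) and Col4a2 (0.36, limma adjusted p = 0.4) did not pass. Nor did Col6a1 (0.82, limma adjusted p = 0.056), Col15a1 (0.85, limma adjusted p = 0.106) or Col18a1 (0.15, limma adjusted p = 0.713). Since only the pancreas label leaves out i4F, the tissue and this difference between the labels cannot be told apart.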

How the data were processed

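Each of the 30 libraries (stranded, poly(A)-selected) gave over 24 M mapped reads, per the labels. The authors deposited FPKM, with kidney and pancreas in separate tables. FastQC, Cufflinks 2.2.1, SAMtools 0.1.19, Bowtie 1.0.0, TopHat2 2.0.10 and mm10 appear, without roles, in the submitters' processing notes; further scaling between libraries is not given in the sources used here. With FPKM only, the depth behind a gene is unknown, so no counting interval or detection limit is given. Replicates are mice as the labels number them; where nothing says they were separate animals, p-values measure only the spread between these samples.

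A limma 3.58.1 fit (R 4.3.3, eBayes with trend, no covariate) of log2(FPKM + 1) used the 15 libraries of a tissue and the genes at 1 FPKM or more in at least 5 of them, with Benjamini-Hochberg adjustment over all genes, two-sided, threshold 0.05. The pseudocount understates changes of low genes. The fit was repeated after median-of-ratios scaling (relative to the median gene, called scaled), and the interaction used all 30 libraries as independent. In pancreas 6 members as deposited and 2 scaled passed the filter only through the p53 KO libraries. The 5 within-library ratios (pseudocount 0.01 FPKM) were compared by exact permutation tests of group means. The within-tissue limma fits were tested on simulated data in which few genes changed. That differs from the p53 KO comparisons in pancreas, where most genes were called. Alternatives changed scaling, pseudocount, filter, samples, replicate block and Xist level; 3 of them were chosen after seeing the data. Positions are from GENCODE M21.

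Always named were Col1a1, Col1a2, Col3a1, Col4a1, Col4a2, Col4a3, Col6a1, Col15a1 and Col18a1. Added were at most 3 called genes, by smallest p, for each class, direction and fit, and at most 3 for each gene list. Col4a4, Col4a5, Col5a3, Col6a2, Col7a1, Col11a1, Col13a1, Col14a1, Col27a1, Serpinh1, Pdgfra and Pdgfrb were named in part after their values were seen. Members and lists were chosen with earlier results of these data known. A gene that this rule names is not reported here.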

Additional observations from a re-analysis of the deposited data

Results flagged for a closer look

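In 4 groups of 5 libraries a single library lay far from the other 4, by Dixon's ratio of its gap to the whole range. The ratio was taken on log2(FPKM + 1), while levels are given below in FPKM. Of such groups 80 were looked at, and chance alone gives such a library in about 1 of 20. Col7a1 measured 16.4 FPKM in pancreas replicate 5 labelled p53 KO, against 2.74 to 4.37 FPKM in the other 4 (ratio 0.765). Col1a2 measured 12.3 FPKM in pancreas i4F Ink4a/Arf KO replicate 4, against 6.07 to 7.24 FPKM (ratio 0.757). In pancreas i4F replicate 4 Col18a1 measured 3.61 FPKM, against 0.598 to 1.13 FPKM (ratio 0.728), and Col15a1 8.11 FPKM, against 2.42 to 3.52 FPKM (ratio 0.717).

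The change that went with the p53 KO label differed between pancreas and kidney in 8 collagens by the interaction test (limma, values relative to the median gene, pancreas minus kidney). The differences were 3.93 for Col1a1, 3.30 for Col1a2, 2.91 for Col3a1, 2.90 for Col5a1, 2.89 for Col5a2, 2.79 for Col12a1, 2.23 for Col8a1 and 1.51 for Col6a3. Col12a1 and Col8a1 passed the pancreas filter only through the p53 KO libraries, so their direction was largely fixed.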

How the results depend on the processing

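With 1 library left out 208 counts of called collagens stayed within 1.5 times and 2 did not. Under other settings 99 did and 14 did not. Both tallies include counts of 0 that stayed at 0, as for i4F Ink4a/Arf KO against i4F in both tissues. Such counts do not measure stability. Without a filter the pancreas counts for p53 KO were 30 against i4F and 30 against i4F Ink4a/Arf KO as deposited (11 and 11 with a minimum of 5 FPKM, and 11 and 11 with the filter on i4F and i4F Ink4a/Arf KO libraries), 25 against i4F relative to the median gene, and 17 for the interaction (4 at 5 FPKM), as more or fewer genes were tested. In kidney i4F p53 KO against i4F 1 collagen passed on both scales without the 4 libraries high in Clps (Col4a4), and 1 relative to the median gene with Xist level as covariate (Col18a1). Against i4F Ink4a/Arf KO 2 kidney collagens passed on both scales without those libraries, and with 1 library left out 0 to 2 as deposited and 0 to 1 relative to the median gene. The cause was not tested. With the replicate block the counts were 17 and 17 as deposited, 15 and 16 relative to the median gene, 8 for the interaction and 0 elsewhere. In no comparison did all 5 same-numbered pairs correlate above 0.1 (-0.0789 to 0.291 in kidney i4F p53 KO against i4F), so the numbers were not taken as pairs. The interaction call of Col6a1 was gained under 8 settings and that of Col15a1 under 1, while the interaction value of Col18a1 ran from -0.025 to 0.328 with 1 library left out, below 0 without p53 KO pancreas replicate 5.

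Ratios near 0 changed sign. For pancreas p53 KO against i4F Col4a2/Col4a1 was -0.029 with a pseudocount of 1, and for pancreas i4F Ink4a/Arf KO against i4F Col4a3/Col4a1 was 0.076 and 0.16 with pseudocounts of 0.1 and 1. With 1 library left out kidney ratios ran, for i4F Ink4a/Arf KO against i4F, from -0.24 to 0.00073 (Col1a2/Col1a1), -0.15 to 0.11 (Col4a3/Col4a1) and -0.26 to 0.11 (Col6a1/Col4a1). For i4F p53 KO they ran against i4F from -0.22 to 0.0067 (Col1a2/Col1a1), and against i4F Ink4a/Arf KO from -0.11 to 0.12 (Col1a2/Col1a1), -0.45 to 0.024 (Col3a1/Col4a1) and -0.34 to 0.041 (Col6a1/Col4a1). In pancreas i4F Ink4a/Arf KO against i4F they ran from -0.31 to 0.018 (Col3a1/Col4a1), -0.0098 to 0.10 (Col4a2/Col4a1) and -0.41 to 0.089 (Col4a3/Col4a1). For p53 KO pancreas they ran against i4F from -0.0050 to 0.088 (Col4a2/Col4a1) and -0.077 to 0.29 (Col6a1/Col4a1), and against i4F Ink4a/Arf KO from -0.045 to 0.055 (Col4a2/Col4a1). Some calls were lost with 1 library left out, where fewer splits exist: Col4a3/Col4a1 for p53 KO pancreas against i4F (-2.99 to -2.44), and, against i4F Ink4a/Arf KO, Col1a2/Col1a1 (-0.72 to -0.58), Col3a1/Col4a1 (2.57 to 3.01) and Col4a3/Col4a1 (-2.82 to -2.29).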
